A study of Mus musculus with 8 samples.

Results

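The genes described here encode the ligands, receptors, antagonists, SMAD proteins and targets of the bone morphogenetic protein (BMP) and transforming growth factor beta (TGF-beta) pathways. They were taken from a list of 43 gene symbols, of which 41 were named on the array, out of 17097 genes measured. The expression of the other members, Inhbb and Pmepa1, was not analysed here. By role, 17 of the measured genes were placed in the BMP branch, 16 in the TGF-beta and activin branch, and 8 were counted as shared. Expression was measured on Affymetrix mouse arrays in bulge cells, the stem cell compartment of the hair follicle, from back skin. In the 4 animals labelled G9a cKO, G9a, which methylates histone H3, was conditionally deleted, and the 4 controls were labelled G9a WT. All 8 animals were 15 weeks old and had their back skin painted with the mutagen DMBA and the tumour-promoting agent TPA once a week for 6 weeks from 8 weeks of age, so that no untreated skin enters the comparison. The labels used here do not state the Cre driver, the strain or how bulge cells were isolated. Each array is titled as 1 animal, and on that reading the spread behind each p-value is that between animals.

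Both pathways run through the same kind of relay. A secreted dimer joins type I and type II receptor kinases, which phosphorylate a receptor SMAD, and this protein enters the nucleus with the common partner SMAD4. BMP ligands act through SMAD1 and SMAD5 and induce the Id genes, which encode inhibitors of basic helix-loop-helix factors, whereas TGF-beta and activin act through SMAD2 and SMAD3. In the hair follicle, BMP signalling is known for holding bulge stem cells at rest, antagonists such as noggin for releasing them, and TGF-beta from the dermal papilla for opposing BMP when a new hair cycle starts.

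Ehmt2, the gene of G9a, read 5.85 ± 0.41 in cKO and 9.07 ± 0.19 in WT in probe set 1460692_PM_at (log2, mean ± SD, n = 4), while its other probe set gave a limma adjusted p of 0.995. All 12 bulge and basal keratinocyte markers lay above 5.23, the log2 level that bounds the dimmest 40% of probe sets. Of these, 0 passed the test in limma, where 2 had an unadjusted p under 0.05. The 2 were Nfatc1 and Krt15, which differed by -0.35 and 0.098, both without overlap (limma adjusted p = 0.0566 and 0.202). Most markers of dermal papilla (5 of 6), endothelium (5 of 6), macrophages and Langerhans cells (7 of 10), T cells (4 of 6) and dermal fibroblasts (6 of 10) lay at or below 5.23, as did 2 of 6 for melanocytes and 1 of 8 for suprabasal keratinocytes. In these lists 1 suprabasal marker rose and 1 fell (Sbsn and Krtdap), 1 fibroblast marker rose and 1 fell (Thy1 and Col1a1), and 0 markers of the other types passed the test in limma, where 2 had an unadjusted p under 0.05. Of the marker and gene lists read here, the one with all members on the same side of 0 was that of the immediate early genes, which respond quickly to growth factors and to tissue dissociation: 18 of 18 measured lay lower in cKO, with a median log2 difference of -0.25, though 0 passed the test and 13 had an unadjusted p under 0.05. Its mean deviation was -0.22 to -0.058 in the cKO arrays and 0.19 to 0.31 in WT replicates 1 to 3, but -0.14 in WT replicate 4. Summed over the list, the log2 values were 178.2 to 181.1 in cKO and 179.5 to 187.7 in WT. The part of this shift in the differences given below was not tested. In such bulk samples, fewer cells of a type and less RNA per cell cannot be told apart.

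The share of pathway genes that differed between the genotypes was near that of all genes. At an adjusted p under 0.05 over all genes (limma, Benjamini-Hochberg), 1 of the 41 genes fell and 0 rose, which is 2.44% against 2.76% of all genes tested (1.92% higher and 0.836% lower). The gene that fell was Fstl3, a secreted antagonist of activin. Without adjustment, 5 of the 41 had a p under 0.05 (12.2%, against 13.7% of all genes). The values of cKO and WT arrays did not overlap for 3 genes, Fstl3, Id3 and Skil, which is 7.32% of the members against 8.24% of all genes. Of these, Skil lay higher in cKO, as 5.15% of all genes did without overlap, and Fstl3 and Id3 lay lower, as 3.09% did. The median log2 difference of the members was 0.0015, that of all genes 0.0027, and 26 of the 41 lay within 0.1 of 0. The fit gave 95% intervals within a 1.5-fold change in either direction for 39 of the 41 genes, the exceptions being Nog and Tgfb3, and within 1.2-fold for 21.

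**Figure D1:**
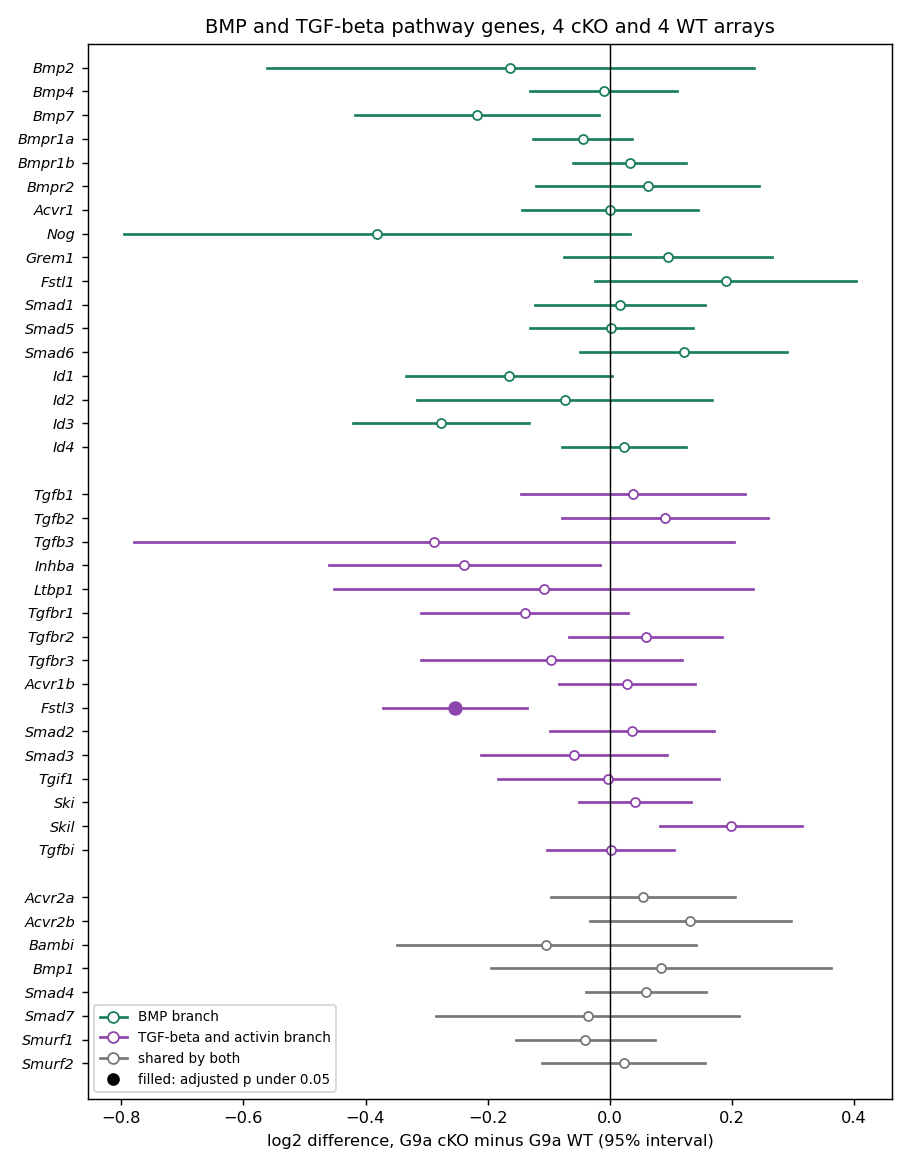
Log2 difference between 4 G9a cKO and 4 G9a WT arrays (x axis) for the 41 measured pathway genes (y axis), with 95% intervals of the limma fit as lines and a filled point for an adjusted p under 0.05. Fstl3, at -0.25, is the single filled point, and the intervals of Nog and Tgfb3 are the widest.

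The regulatory sequences of the genes with the 2 largest differences among those without overlap, Fstl3 and Id3, are shown because SMAD complexes bind a short element, CAGAC or its complement GTCTG, in their targets. Each is the 250 bases before the start of the gene from RefSeq (GRCm38.p6), with every match to CAGAC or GTCTG in capitals. The Fstl3 sequence is chr10:79777024-79777273 and that of Id3 chr4:136143572-136143821, both on the plus strand.
Fstl3: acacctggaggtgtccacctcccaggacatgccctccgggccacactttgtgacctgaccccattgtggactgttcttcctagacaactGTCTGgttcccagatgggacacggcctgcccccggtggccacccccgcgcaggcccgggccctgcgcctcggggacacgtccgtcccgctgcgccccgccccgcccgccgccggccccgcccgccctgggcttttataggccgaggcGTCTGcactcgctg
Id3: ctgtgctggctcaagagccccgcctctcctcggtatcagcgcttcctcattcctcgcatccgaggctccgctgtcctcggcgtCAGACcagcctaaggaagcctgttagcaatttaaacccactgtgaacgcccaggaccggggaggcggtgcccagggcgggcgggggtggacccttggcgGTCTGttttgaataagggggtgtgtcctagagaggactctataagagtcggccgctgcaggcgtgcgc
In Fstl3 the matches begin 161 and 14 bases before the start, and in Id3 they begin 167 and 68 bases before it. Of 32851 such sequences in the RefSeq table, 42.2% held at least 1 match and 11.7% at least 2. Among 40 sequences of the 30 listed pathway genes found in the table, Inhbb included, 19 held a match (47.5%). Neither printed sequence held GGCGCC, a GC-rich element bound by BMP SMADs, or the palindrome GTCTAGAC, which 9.59% and 0.167% of all sequences held. Of the 40 sequences of listed genes, 10 held GGCGCC (25%) and 0 held GTCTAGAC. A match is a description of the letters and not a measured binding site.

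In the TGF-beta and activin branch, Fstl3 fell and the remaining genes did not pass the test. Fstl3 encodes follistatin-like 3, which binds activin and keeps it from its receptors. Its single probe set, 1422803_PM_at, read 9.23, 9.29, 9.36 and 9.39 in cKO replicates 1 to 4 and 9.56, 9.61, 9.63 and 9.49 in WT replicates 1 to 4 (log2). Every cKO array lay below every WT array, with WT replicate 4 nearest to the cKO values. The means were 9.32 ± 0.07 and 9.57 ± 0.06 (SD, n = 4), a 1.19-fold lower level in cKO (log2 difference -0.25, SE 0.053, limma adjusted p = 0.0317). By exact permutation of the array labels (two-sided) p was 0.0286, and a lower one cannot be reached with 4 against 4. The size of the difference was steady, between -0.28 and -0.22 over 16 alternative fits, but the call was not. It was lost without cKO replicate 1, 2 or 3 (limma adjusted p = 0.0666, 0.122 and 0.0671) and without WT replicate 1, 2 or 3 (0.0714, 0.0868 and 0.115). It was also lost when arrays were shifted to a common median (0.0581) and with the replicate number as a block (0.126).

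Among the ligands of this branch, Inhba, which encodes the activin A subunit, read 5.68, 5.64, 5.53 and 5.68 in cKO replicates 1 to 4 and 5.83, 5.96, 6.11 and 5.58 in WT replicates 1 to 4. WT replicate 4 lay within the cKO range, and the other WT arrays lay above it. The log2 difference was -0.24 (95% interval -0.46 to -0.016, limma adjusted p = 0.321). Without WT replicate 4 it was -0.33 and passed the test (limma adjusted p = 0.0409), which makes that array decide the call. A gain of calls without that array was general. Over all genes, those called went from 329 to 502 higher and from 143 to 294 lower. A second, dimmer probe set of Inhba differed by 0.0010.

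The TGF-beta ligands themselves did not separate by genotype. Tgfb3 read 8.65, 8.39, 7.76 and 7.81 in cKO and 8.61, 8.02, 8.29 and 8.85 in WT replicates 1 to 4. Both genotypes thus held high and low arrays, and its pooled within-group SD of 0.40 was larger than that of 99.4% of all genes. Its difference of -0.29 had an interval of -0.78 to 0.20. Tgfb1 and Tgfb2 differed by 0.038 and 0.090 on the log2 scale, with intervals of -0.15 to 0.22 and -0.079 to 0.26. Ltbp1, whose product holds latent TGF-beta in the matrix, ran from 8.50 to 9.16 in cKO and from 8.66 to 9.23 in WT.

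Of the receptors of the branch, Tgfbr1, the type I receptor of TGF-beta, had the lowest p. It read 7.90, 8.03, 8.01 and 7.93 in cKO and 8.27, 8.18, 8.03 and 7.94 in WT replicates 1 to 4. WT replicate 4 lay among the cKO arrays, and WT replicate 3 was level with the highest of them. The log2 difference was -0.14 (limma adjusted p = 0.488), and the further probe sets 1420893_PM_a_at and 1420894_PM_at differed by -0.27 and -0.11 (limma with all probe sets, adjusted p = 0.237 and 0.721), so the 3 probe sets shared a direction without passing. Tgfbr2, the type II receptor, differed by 0.059 (95% interval -0.066 to 0.18). Tgfbr3, the coreceptor betaglycan, differed by -0.096 and the activin receptor gene Acvr1b by 0.029, neither past the test (limma adjusted p = 0.770 and 0.902).

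The receptor SMADs of the branch and its matrix target did not pass the test. Smad2 read 8.78 ± 0.07 in cKO and 8.74 ± 0.09 in WT, and Smad3 read 9.01 ± 0.14 and 9.07 ± 0.04 (log2, mean ± SD, n = 4). Their log2 differences of 0.037 and -0.059 had intervals of -0.098 to 0.17 and -0.21 to 0.094. Tgfbi, a matrix protein gene induced by TGF-beta, was measured with a narrow interval, -0.10 to 0.11 around a difference of 0.0015. For Smad2, Smad3 and Tgfbi the whole interval lay within a 1.2-fold change in either direction.

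None of the corepressor genes of the branch passed the test. Skil, which encodes SnoN, a repressor of SMAD complexes, read 9.55, 9.43, 9.40 and 9.48 in cKO and 9.25, 9.23, 9.36 and 9.23 in WT replicates 1 to 4. All cKO arrays lay above all WT arrays, with WT replicate 3 nearest to them. The log2 difference was 0.20 (SE 0.052, 1.15-fold), with a limma adjusted p of 0.0845, and no alternative fit brought it under 0.05 (0.0596 to 0.262). Its relative Ski differed by 0.042 and Tgif1, a homeodomain corepressor, by -0.0020 (limma adjusted p = 0.761 and 0.995).

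**Figure D2:**
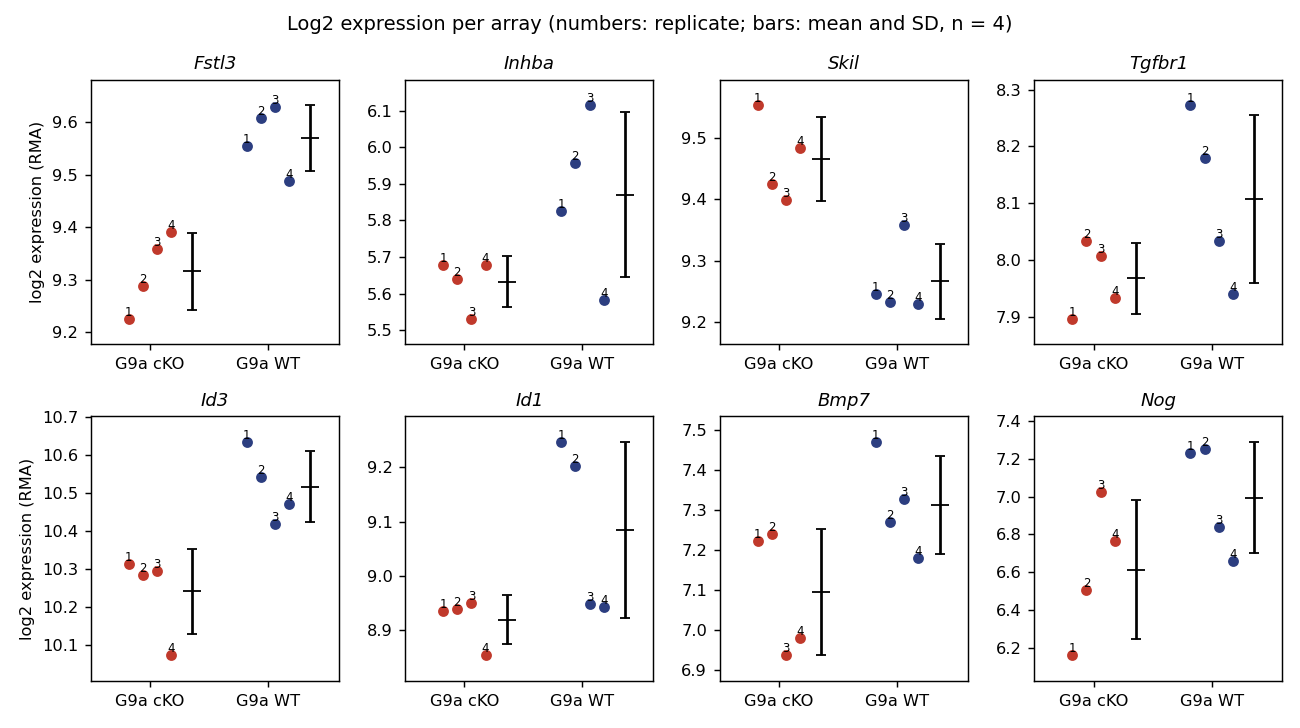
Log2 expression per array (y axis, a separate range in each panel) for 4 genes of the TGF-beta and activin branch (top) and 4 of the BMP branch (bottom); points are arrays numbered by replicate, bars are mean and SD (n = 4). The groups do not overlap for Fstl3, Skil and Id3, and WT replicate 4 lies within the cKO range for Inhba, Tgfbr1, Id1, Bmp7 and Nog.

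In the BMP branch 0 of 17 genes passed the test, against 2.76% of all genes. By limma's unadjusted p under 0.05 there were 2 (Bmp7 and Id3), which is 11.8% against 13.7% of all genes. The values did not overlap for 1 gene (Id3), which is 5.88% against 8.24%. By 2 of the alternative fits, quantile normalization again and array weights, 1 gene of the branch, Id3, was called lower. The median log2 difference of the branch was 0.00017, against -0.00024 in the TGF-beta and activin branch and 0.039 among the shared genes.

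Id3 was the BMP gene nearest to a call. It read 10.31, 10.28, 10.29 and 10.07 in cKO and 10.64, 10.54, 10.42 and 10.47 in WT replicates 1 to 4. Every cKO array lay below every WT array, and cKO replicate 4 stood apart from the other cKO arrays on the low side. The means were 10.24 ± 0.11 and 10.52 ± 0.09 (SD, n = 4), with a log2 difference of -0.28 (SE 0.065, limma adjusted p = 0.0527). The adjusted p was 0.0395 after quantile normalization again and 0.0467 with array weights, and the difference stayed between -0.31 and -0.22 in all 16 alternative fits.

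The other Id genes did not share that separation. Id1 read 8.94, 8.94, 8.95 and 8.85 in cKO and 9.25, 9.20, 8.95 and 8.94 in WT replicates 1 to 4, so that only WT replicates 1 and 2 lay above the cKO arrays. Its log2 difference was -0.16 (95% interval -0.33 to 0.0036, limma adjusted p = 0.378). Id2 differed by -0.073 (limma adjusted p = 0.878), and its further probe sets by 0.044 and, in the dimmest, by -0.34 (limma with all probe sets, adjusted p = 0.897 and 0.398). Id4 differed by 0.023, with an interval of -0.079 to 0.12. Id3 thus lay lower in all 4 cKO arrays, Id1 in part of the comparison, and Id2 and Id4 with no steady direction over their probe sets.

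Of the BMP ligands, Bmp7 had 3 probe sets that lay lower in cKO together. The brightest read 7.22, 7.24, 6.94 and 6.98 in cKO and 7.47, 7.27, 7.33 and 7.18 in WT replicates 1 to 4, with cKO replicates 3 and 4 below all other arrays. Its log2 difference was -0.22 (SE 0.090, limma adjusted p = 0.312). Probe set 1432410_PM_a_at read 5.91, 5.83, 5.66 and 6.03 in cKO and 6.14, 6.14, 6.24 and 6.07 in WT, without overlap, and differed by -0.29 (limma with all probe sets, adjusted p = 0.121). Over all probe sets 7.33% had groups without overlap (3.19% lower in cKO), and 6 of the 78 probe sets of pathway genes did. Bmp2 varied between arrays, from 8.52 to 9.03 in cKO and from 8.63 to 9.43 in WT, and its difference of -0.16 lay within that spread (limma adjusted p = 0.800). Bmp4 read 4.70 ± 0.08 in cKO and 4.71 ± 0.08 in WT, both within the dimmest 40% of probe sets.

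The extracellular antagonists of BMP pointed in different directions. Nog, which encodes noggin, read 6.16, 6.51, 7.02 and 6.77 in cKO and 7.23, 7.25, 6.84 and 6.66 in WT replicates 1 to 4. The groups overlapped, with cKO replicate 1 lowest and WT replicates 1 and 2 highest. The log2 difference of -0.38 was the largest of any member in size, with an interval of -0.80 to 0.033 (limma adjusted p = 0.416). Fstl1, a secreted glycoprotein that binds BMP4, lay higher in cKO by 0.19 and 0.25 in its 2 probe sets (limma with all probe sets, adjusted p = 0.454 and 0.498). In the brighter probe set the cKO arrays read 9.36 to 9.57 and WT replicates 1 to 3 read 9.04 to 9.27, but WT replicate 4 read 9.55. Grem1, the gene of gremlin 1, differed by 0.096 (limma adjusted p = 0.684).

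None of the BMP receptor and SMAD genes passed the test. Bmpr2, the type II receptor, read 9.83 ± 0.07 in cKO and 9.77 ± 0.18 in WT, and Acvr1, the type I receptor ALK2, read 8.85 ± 0.09 in both groups (log2, mean ± SD, n = 4). The log2 difference of Acvr1 was 0.00017, with an interval of -0.14 to 0.15. The tested probe sets of Bmpr1a and Bmpr1b lay between 4.21 and 4.50 in all arrays, under the level of the dimmest 40% of probe sets, so a difference in these type I receptors may not be detectable here. Smad1 and Smad5 differed by 0.017 and 0.0028, with intervals of -0.12 to 0.16 and -0.13 to 0.14. Smad6, an inhibitory SMAD that BMP itself induces, differed by 0.12 (limma adjusted p = 0.564). Over both branches and the shared genes, the 95% interval of all 7 SMAD genes lay within 1.5-fold, and that of 5 within 1.2-fold.

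Among the 8 shared genes 0 passed the test by limma and 0 had an unadjusted p under 0.05, against 2.76% and 13.7% of all genes. Acvr2b, a type II receptor of activins and BMPs, read 7.33, 7.34, 7.32 and 7.15 in cKO and 7.27, 7.12, 7.01 and 7.22 in WT replicates 1 to 4, with 3 cKO arrays above all WT arrays. Its log2 difference was 0.13 (limma adjusted p = 0.499), and that of Acvr2a was 0.054 (limma adjusted p = 0.838). Acvr2a read 8.40, 8.37, 8.51 and 8.54 in cKO and 8.44, 8.34, 8.29 and 8.53 in WT replicates 1 to 4, ranges that overlapped almost fully. Smad4, the common SMAD, read 10.19, 10.12, 10.13 and 10.08 in cKO and 10.12, 10.11, 10.03 and 10.01 in WT. Its 3 probe sets all lay higher in cKO, by 0.052 to 0.080, and none passed the test. Bambi, a decoy receptor without kinase, read 7.13, 7.29, 7.11 and 7.08 in cKO and 7.56, 7.31, 7.18 and 6.98 in WT, and the WT values enclosed the cKO values. Smad7, the inhibitory SMAD induced by TGF-beta, differed by -0.036, the ubiquitin ligase genes Smurf1 and Smurf2 by -0.040 and 0.023, and Bmp1, an extracellular protease that cleaves procollagen and chordin, by 0.084.

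**Figure D3:**
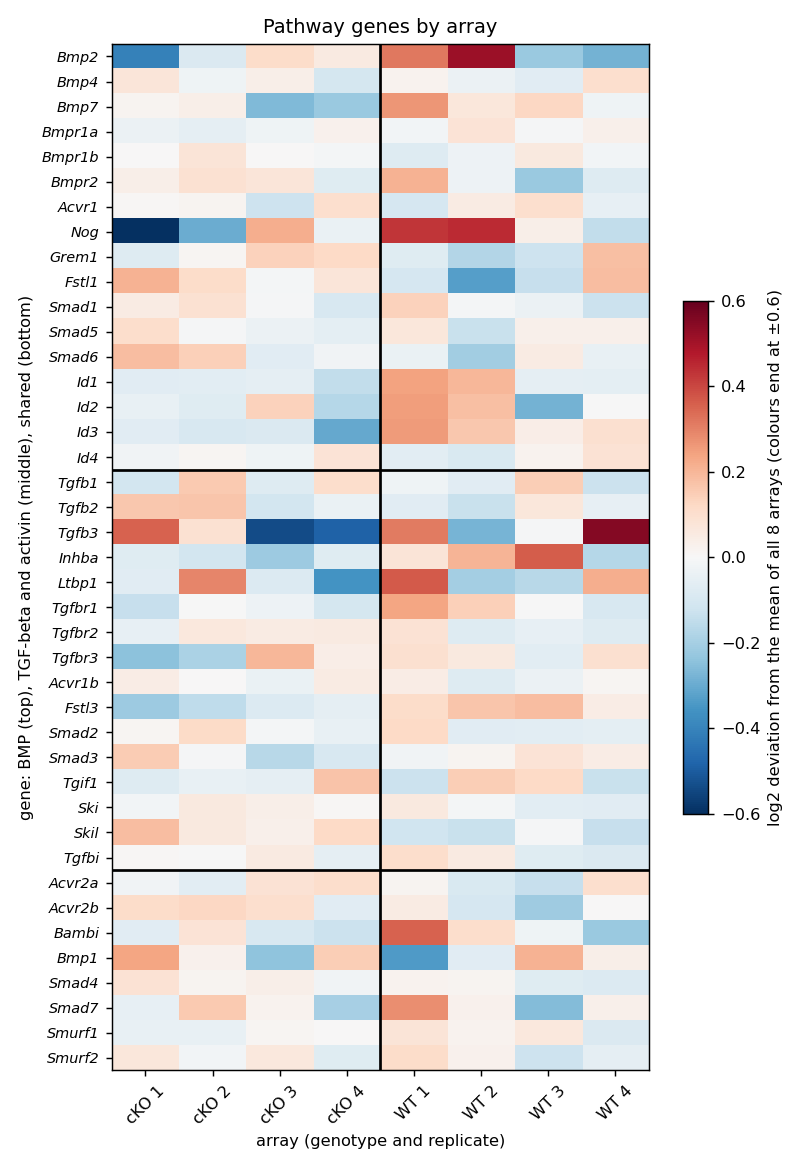
Deviation of each array (columns) from the mean of all 8 arrays on the log2 scale, for the 41 pathway genes (rows) by branch; red is above and blue below that mean, and colours end at ±0.6. Tgfb3, Nog, Bmp2 and Ltbp1 have the deepest colours in both genotypes, while Fstl3 is blue in the cKO and red in the WT columns.

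The members ranged widely in their spread between arrays of a genotype. Their pooled within-group SDs lay between the 6.60th percentile of all genes (Bmpr1a) and the 99.4th (Tgfb3), with a median of 0.11 against 0.085 over all genes. The 4 most variable were Tgfb3 (0.40), Nog (0.33), Bmp2 (0.32) and Ltbp1 (0.28), at or above the 97.5th percentile of all genes. Other genes of secreted proteins were less variable, such as Bmp4 at the 41.6th and Fstl3 at the 32.7th percentile. Bmp4 and Bmpr1a lay within the dimmest 40% of probe sets, where differences between arrays are compressed. WT replicate 4 was the WT array nearest to the cKO mean for 12 of the 41 genes (29.3%), against 32.3% of all genes, so the place of that array among these genes was like its place in general.

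Several probe sets were present for 24 of the 41 genes, and in 14 of these all probe sets lay on the same side of 0. Every probe set of Bmp7 and Tgfbr1 lay between -0.29 and -0.11, and both of Fstl1 lay at 0.19 or 0.25. Id2, Id4, Inhba and Smad3 were among those whose probe sets disagreed in direction. Of all 78 probe sets, 1 was called, that of Fstl3 (limma with all probe sets, adjusted p = 0.0449), where 1.77% of all probe sets were called and 0.587% were called lower.

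**Figure D4:**
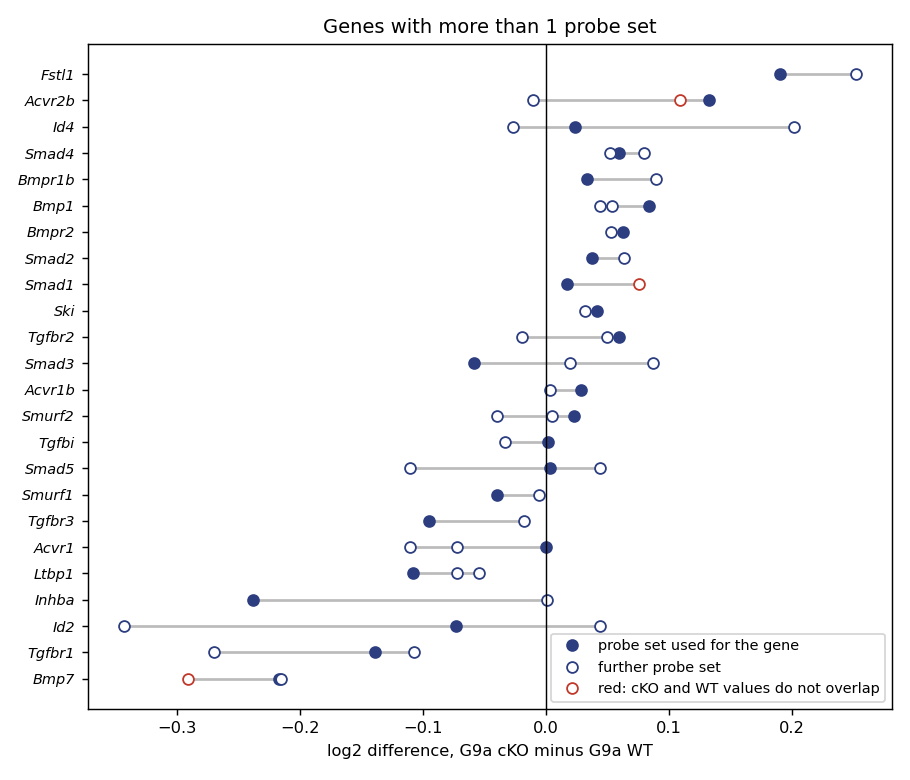
Log2 difference between cKO and WT (x axis) for each probe set of the 24 pathway genes that have several (y axis, ordered by their mean); filled points are the probe set used for the gene. All 3 points of Bmp7 and of Tgfbr1 lie below 0, both of Fstl1 lie above 0, and the red points are probe sets whose groups do not overlap.

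Other genes of the same pathways were read from 2 further lists. Of 28 measured BMP pathway genes outside the members, 2 rose and 1 fell (10.7%, against 2.76% of all genes), with a median log2 difference of 0.032. Both lists were chosen with earlier results of these data known, so their shares cannot be read as an enrichment. The gene that fell was Fst, which encodes follistatin, the relative of FSTL3 that binds activin and, more weakly, BMPs. Fst was counted on the BMP list and not with the activin genes, whereas Fstl3 was placed in the TGF-beta and activin branch. The fall of Fst is therefore not particular to BMP. The brighter probe set of Fst read 10.51, 10.56, 10.49 and 10.40 in cKO and 10.99, 11.02, 11.05 and 10.66 in WT replicates 1 to 4. All cKO arrays lay below all WT arrays, and WT replicate 4 was the nearest to them. The log2 difference was -0.44 (SE 0.080, 1.36-fold lower, limma adjusted p = 0.0154), and its second probe set differed by -0.37, also without overlap (limma with all probe sets, adjusted p = 0.0829). The call was lost without cKO replicate 4 (0.0547), WT replicate 1 (0.0510) or WT replicate 3 (0.0569). The activin antagonist genes Fst and Fstl3 thus both lay lower in all 4 cKO arrays, while Inhba, their ligand's gene, did so against 3 of the 4 WT arrays.

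The genes that rose on that list were Dlx3 and Msx2, homeobox genes that act downstream of BMP in hair differentiation. Dlx3 read 7.78, 8.06, 7.92 and 7.80 in cKO and 7.41, 7.21, 7.36 and 7.51 in WT replicates 1 to 4, without overlap. Its level was 1.43-fold higher in cKO (log2 difference 0.51, SE 0.083, limma adjusted p = 0.00867) and it kept the call in all 8 fits without 1 array, though not with the replicate number as a block (0.0647). Its second probe set lay higher by 0.18, also without overlap (limma with all probe sets, adjusted p = 0.245). Msx2 read 6.60, 6.66, 6.62 and 6.63 in cKO and 6.38, 6.47, 6.35 and 6.38 in WT, without overlap and with a log2 difference of 0.23 (limma adjusted p = 0.0438). Its second probe set, at the dim end of the scale, differed by 0.047 with overlap, and the mean of both gave a difference of 0.14 that did not pass (limma adjusted p = 0.105). The call held in 4 of 16 alternative fits. Among the 8 fits without 1 array it held in 1, the one without WT replicate 2 (limma adjusted p = 0.0455), and the others gave 0.0571 to 0.158. Dlx3 and Msx2 thus lay higher in cKO, whereas Id3 and Id1 lay lower without passing. On the same list, Dlx5, Gata3 and Msx1 differed by -0.24, -0.10 and 0.032. None of these passed the test (limma adjusted p = 0.300, 0.582 and 0.885), so together with Dlx3 and Msx2 they showed no common direction. Over the whole list of 28 genes, 20 lay above 0 and 8 below, where 8798 of all 17097 genes lay above 0. Of the 28, 9 lay at or below 5.23, and this share too cannot be read as an enrichment.

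Of 30 measured TGF-beta and activin pathway genes outside the members, 1 rose and 0 fell (3.33%, against 2.76% of all genes), with a median log2 difference of 0.027. By limma's unadjusted p under 0.05, 2 of these genes lay higher and 5 lower, and of the 28 other BMP genes 4 lay higher and 3 lower, where 13.7% of all genes passed that limit in either direction. The gene that rose was Wwp1, a ubiquitin ligase related to the SMURF proteins. It read 9.94, 10.00, 9.94 and 9.88 in cKO and 9.81, 9.73, 9.68 and 9.71 in WT replicates 1 to 4, without overlap. The log2 difference was 0.20 (SE 0.046, 1.15-fold, limma adjusted p = 0.0470), all 4 of its probe sets lay higher in cKO, by 0.12 to 0.24, and its call held in 1 of the 8 fits without 1 array, that without WT replicate 1 (0.0449, the others 0.0586 to 0.178). Vasn, which encodes the TGF-beta-binding protein vasorin, differed by -0.48 (limma adjusted p = 0.111), and without WT replicate 4 by -0.61 (limma adjusted p = 0.0129). As given for Inhba, leaving out that array raised the number of calls over all genes. That array read 7.09, within the cKO range of 6.78 to 7.15, while the other WT arrays read 7.47 to 7.80. A second, dimmer probe set of Vasn differed by -0.23, with overlap (limma with all probe sets, adjusted p = 0.406). Nedd4l, a ubiquitin ligase that acts on activated SMAD2 and SMAD3, read 8.13 to 8.38 in cKO and 8.47 to 8.54 in WT, without overlap, and its difference of -0.21 did not pass (limma adjusted p = 0.122). Its further, dimmer probe sets differed by -0.17, -0.034 and -0.14 (limma with all probe sets, adjusted p = 0.224, 0.879 and 0.439).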

How the data were processed

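By the sample titles, expression was measured on 1 array per animal, 4 G9a cKO and 4 G9a WT. The authors deposited log2 values, 1 per probe set, and the submitters' processing notes name RMA (no version or setting is given). RMA compresses differences near the bottom of the scale, so changes of dim genes are understated. Values ran from 3.09 to 13.1 with array medians of 5.87 to 5.95, and no further normalization was applied. The number of arrays limits the precision.

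Of 45141 probe sets, 28898 had 1 gene symbol in the platform annotation, 551 several and 15692 none here; those with several were not named. Of each of the 17097 genes, the brightest probe set by its 8-array mean entered a linear model without covariates (limma 3.58.1, R 4.3.3). The moderated test used a mean-variance trend (eBayes), was two-sided, and was adjusted by Benjamini-Hochberg over all genes at 0.05. Intervals are 95% intervals of that fit. The code was tested on simulated data. Alternatives were other array scaling, dim probe sets left out, the mean of a gene's probe sets, no trend, array weights, a replicate block, adjustment over all probe sets, and each array left out.

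Members, branches and lists were chosen with earlier results of these data known. Described in full are members past the threshold, the 4 lowest p per branch, and in each list of other pathway genes those past it and the 3 lowest p. Figures were drawn with matplotlib 3.10.9.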

Additional observations from a re-analysis of the deposited data

Results flagged for a closer look

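In 94 groups of 4 arrays (41 members and 6 other pathway genes, 2 genotypes each), 9 had 1 array set apart from the other 3 by more than Dixon's 95% critical share of the group's range, where chance flags about 1 in 20 groups. In cKO replicate 4, Id3 read 10.07 (others 10.28 to 10.31), Id1 read 8.85 (others 8.94 to 8.95), Acvr2b read 7.15 (others 7.32 to 7.34) and Tgif1 read 9.88 (others 9.64 to 9.67). In cKO replicate 2, Bmpr1b read 4.50 (others 4.42 to 4.43), and in cKO replicate 1, Tgfbr2 read 8.52 (others 8.62 to 8.63). Among the WT arrays, Smad2 read 8.88 in replicate 1 (others 8.69 to 8.70), Skil read 9.36 in replicate 3 (others 9.23 to 9.25) and Fst read 10.66 in replicate 4 (others 10.99 to 11.05).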

How the results depend on the processing

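Over 16 alternative fits (15 for the dim genes Bmp4, Bmpr1a and Bmpr1b), 28 of the 41 members kept the sign of their difference, and 3 were called in any of them: Fstl3 in 8, Id3 in 2 and Inhba in 1. For Fstl3 all 16 kept the sign.

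After quantile normalization again, 1 BMP member was lower, and 1 other BMP gene and 0 other TGF-beta genes were higher. With arrays at a common median, 0 TGF-beta members were lower, and 1 other BMP gene and 0 other TGF-beta genes were higher. With the mean of all probe sets, and with p-values adjusted over all probe sets, 1 other BMP gene and 0 other TGF-beta genes were higher, and without the trend 0 other TGF-beta genes were. With array weights 249 genes in all were lower, as were 1 BMP member and 1 other TGF-beta gene, and 4 other BMP genes were higher. At a threshold of 0.1, 497 genes were higher and 247 lower, with 1 BMP member lower (Id3) and 1 TGF-beta member higher (Skil).

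With the replicate number as a block, 191 genes were higher and 77 lower, against 329 and 143 without it. There, 0 TGF-beta members were lower, 0 other BMP genes were higher and 2 lower, and 0 other TGF-beta genes were higher. Same-numbered arrays of the 2 genotypes share only a number: their deviations correlated across genes at -0.332, -0.274, -0.529 and 0.0281 for replicates 1 to 4, and no cKO array correlated best with the WT array of its own number.

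Leaving out 1 array gave 190 to 502 genes higher (502 without WT replicate 4, 190 without cKO replicate 2) and 67 to 294 lower (294 without WT replicate 4, 67 without WT replicate 3). TGF-beta members lower numbered 0 to 2, other BMP genes 1 to 2 higher and 0 to 3 lower, and other TGF-beta genes 0 to 1 higher and 0 to 1 lower. The cause of these shifts was not tested.

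Signs turned only for members near 0, none past the threshold. With array weights Bmp4 was 0.0035, Acvr1 -0.034, Smad5 -0.0063, Bmp1 -0.0013 and Smad7 0.027. With the mean of all probe sets Acvr1 was -0.061, Smad5 -0.021, Smad3 0.016, Tgfbi -0.016 and Smurf2 -0.0041. After quantile normalization again Acvr1 was -0.0087 and Smad5 -0.0041, and at a common median Tgif1 was 0.0010. Without 1 array, Bmp4 ran from -0.036 to 0.023, Bmpr2 from -0.0012 to 0.14, Acvr1 from -0.034 to 0.042, Smad1 from -0.023 to 0.066, Smad5 from -0.041 to 0.026 and Id4 from -0.0028 to 0.056. Likewise Tgfb1 ran from -0.0083 to 0.093, Tgif1 from -0.059 to 0.046, Tgfbi from -0.027 to 0.036, Bmp1 from -0.016 to 0.18, Smad7 from -0.13 to 0.051 and Smurf2 from -0.014 to 0.063.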

Other observations

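Some genes of the 2 lists of other pathway genes turned on WT replicate 4, and those named here were chosen after their values were seen. Because of that choice, their p-values without that array are given as description only. As given for Inhba, leaving it out raised the number of calls over all genes. Sostdc1, which encodes the BMP and WNT antagonist wise, read 11.60, 11.66, 11.55 and 11.57 in cKO and 11.17, 11.01, 11.09 and 11.65 in WT replicates 1 to 4. WT replicate 4 stood with the cKO arrays, well above the other WT arrays. With all arrays the log2 difference was 0.37 (limma adjusted p = 0.155), and without WT replicate 4 it was 0.51 (limma adjusted p = 0.000734). Dlx5, a homeobox gene related to Dlx3, showed the opposite sign: it read 5.09 to 5.24 in cKO, 5.44 to 5.59 in WT replicates 1 to 3 and 5.10 in WT replicate 4. Its difference was -0.24 with all arrays (limma adjusted p = 0.300) and -0.35 without WT replicate 4 (limma adjusted p = 0.0124). Tob1, an antiproliferative gene whose product is known to bind BMP SMADs, differed by -0.43 (limma adjusted p = 0.101) and by -0.52 without that array (limma adjusted p = 0.0332). It read 8.19, 8.29, 8.20 and 7.89 in cKO and 8.81, 8.73, 8.43 and 8.33 in WT replicates 1 to 4. Unlike for Sostdc1 and Dlx5, the groups did not overlap, and WT replicate 4 lay next to WT replicate 3.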
